A study of Mus musculus with 6 samples.

Results

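Epcam, Cldn7, Cdh1, Cdh2, Jam2, Jam3, F11r and Pecam1 encode surface proteins with which cells hold on to each other. Most of these are best known from epithelium and endothelium. Hepacam2 encodes a relative of an adhesion molecule, and whether its own product serves adhesion was not examined. The 9 genes were taken by name from the 54532 listed in each file, and they had been chosen from measured values of the comparison described here. Their values, and the side of the threshold on which each fell in a fit over all genes, are therefore a description and not a test of these genes, and no p-value is given for them. All 9 were among the 14608 genes that passed the filter on low counts. Of these, Epcam, Cldn7, Hepacam2 and Cdh2 were higher in R274X libraries, F11r was lower, and Cdh1, Jam2, Jam3 and Pecam1 did not pass the threshold of an adjusted p of 0.05.

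RNA was sequenced from LSK cells of mouse bone marrow, a gate of cells without lineage markers that carry Sca-1 and c-Kit, and one enriched for blood stem cells and multipotent progenitors. The first group is 3 libraries labelled Vav1-Cre; Phf6fl-R274X/Y (R274X), and the second is 3 libraries labelled Phf6fl-R274X/Y without Cre (floxed). Every library thus came from males that carry the floxed R274X allele of Phf6, an X-linked gene of a chromatin protein mutated in leukaemia, and the groups differ in Cre, which the Vav1 promoter drives in blood cells and, in some lines, in endothelium. An effect of Cre itself cannot be told apart from that of the recombined allele, and ages are not given. The labels do not state that each library is a separate animal, and a p-value here measures only the scatter of these 6 libraries, part of which can be technical.

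Epithelial cells are joined by tight junctions, whose strands are built of claudins and which also hold the junctional adhesion molecules (JAMs), and by adherens junctions, in which cadherins bind each other across the gap and are tied to actin by catenins. EpCAM is a separate adhesion protein of epithelia that binds claudin-7 directly and stabilises it, and matriptase cleaves EpCAM under the control of the inhibitors encoded by Spint1 and Spint2. Blood cells build no epithelial sheets, but blood stem cells and vessels share PECAM-1, ESAM and JAM proteins, which serve contact with endothelium and passage through it.

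Sequences around starts are shown for Epcam, Cldn7, Hepacam2 and F11r, the genes looked up for which a window was available. The first 3 of these were higher in R274X libraries and F11r was lower. No window was available for Cdh1, Jam2, Jam3 and Pecam1. No window is shown for Cdh2, the other gene past the threshold. Cdh2 was left out before windows were looked up. RefSeq windows on GRCm38.p6, from 250 bases before to 50 after a start, were read for 4 of the 9 genes, with 5 windows. Capitals mark CACCTG or its reverse complement CAGGTG, the E-box that the repressors ZEB1 and SNAI1 and the activator E2A can bind. The Epcam window is chr17:87635729-87636028 on the plus strand. Cldn7 has a window at the annotated gene start, chr11:69964529-69964828, and another at a start inside the gene, chr11:69965171-69965470, both on the plus strand. The Hepacam2 window, chr6:3494449-3494748 on the minus strand, also belongs to a start inside the annotated gene, and that of F11r is chr1:171437311-171437610 on the plus strand.
Epcam: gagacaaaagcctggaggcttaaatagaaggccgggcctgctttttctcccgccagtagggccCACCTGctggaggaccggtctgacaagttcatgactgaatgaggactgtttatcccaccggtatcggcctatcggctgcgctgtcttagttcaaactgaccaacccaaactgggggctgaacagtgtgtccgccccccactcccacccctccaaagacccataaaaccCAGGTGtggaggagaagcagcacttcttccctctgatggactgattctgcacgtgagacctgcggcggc
Cldn7 at the gene start: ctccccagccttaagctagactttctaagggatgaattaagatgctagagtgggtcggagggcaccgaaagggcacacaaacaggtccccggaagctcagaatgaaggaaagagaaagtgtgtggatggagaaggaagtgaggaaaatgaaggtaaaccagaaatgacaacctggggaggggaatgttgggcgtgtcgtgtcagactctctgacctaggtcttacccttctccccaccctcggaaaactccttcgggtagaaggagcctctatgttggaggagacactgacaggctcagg
Cldn7 at the inner start: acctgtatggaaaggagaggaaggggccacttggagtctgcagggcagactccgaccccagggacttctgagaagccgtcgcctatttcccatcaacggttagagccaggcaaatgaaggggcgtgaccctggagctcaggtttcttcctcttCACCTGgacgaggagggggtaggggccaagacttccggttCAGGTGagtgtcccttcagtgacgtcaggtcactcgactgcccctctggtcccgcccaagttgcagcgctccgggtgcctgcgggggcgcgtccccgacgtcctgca
Hepacam2 at the inner start: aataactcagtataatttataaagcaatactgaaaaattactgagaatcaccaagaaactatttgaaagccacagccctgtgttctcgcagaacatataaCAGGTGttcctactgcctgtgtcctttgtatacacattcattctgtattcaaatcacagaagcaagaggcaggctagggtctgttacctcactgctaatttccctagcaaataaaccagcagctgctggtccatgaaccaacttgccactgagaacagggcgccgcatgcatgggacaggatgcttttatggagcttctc
F11r: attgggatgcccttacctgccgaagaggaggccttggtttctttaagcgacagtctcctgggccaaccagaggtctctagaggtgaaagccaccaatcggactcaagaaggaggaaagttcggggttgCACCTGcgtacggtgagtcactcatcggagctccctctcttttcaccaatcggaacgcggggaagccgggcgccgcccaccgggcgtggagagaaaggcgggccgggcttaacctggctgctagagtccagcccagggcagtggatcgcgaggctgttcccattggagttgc

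The Epcam window held 2 such hexamers, beginning at -187 and -19 from the start. The inner Cldn7 window also held 2, at -97 and -57, and the window at the gene start held 0. Hepacam2 had 1 at -150 and F11r had 1 at -122, so the hexamer was present in a gene that was higher as well as in the one that was lower. Among all 32851 windows of this length, 20.2% held CACCTG or CAGGTG. Counted on both strands, the GC box GGGCGG (in 35.7% of all windows) was present once each in the Epcam, inner Cldn7 and F11r windows. TATAAA (13.6% of all windows) matched in Hepacam2 alone, 2 times, and CCAAT (37.4%) in F11r alone, 4 times. The pair in Hepacam2 overlaps and is 1 site read on both strands. A match describes these letters only. GC content was 43.0% in the Hepacam2 window, 57.0% in that of Epcam and 60.3% in that of F11r, beside a median of 52.7% over all windows.

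The libraries held 15406314 to 16896472 counts in the R274X group and 17200917 to 18106065 in the floxed group. Phf6 itself had 131, 155 and 124 counts in R274X libraries and 600, 552 and 623 in floxed libraries. It was 3.51-fold lower in R274X (log2 fold change -1.81, SE 0.12, adjusted p = 6.67e-06, edgeR quasi-likelihood test), and the groups did not overlap, so its RNA separated the libraries as labelled. Of the gate genes, Kit (c-Kit) fell by 0.71 on the log2 scale (adjusted p = 0.00159) and Ly6a (Sca-1) rose by 0.80 (adjusted p = 5.83e-05, edgeR), and of the 9 LSK marker genes 7 were lower and 1 higher. Immunoglobulin genes, which belong to B-lineage cells, took 6.85%, 7.95% and 4.45% of counts in R274X libraries and 0.649%, 0.293% and 1.18% in floxed libraries. These shares moved with the groups, as did several changes described next, and their part in those changes was not tested. In such bulk libraries, fewer cells of a type and less RNA per cell cannot be told apart.

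Across all genes, 17.9% of those tested passed the threshold, 10.1% higher and 7.89% lower in R274X, and the median log2 fold change was -0.02. The set counted 4 of 9 genes higher and 1 of 9 lower, a count fixed by the choice of the genes. Groups did not overlap in CPM (the count as a share of the library total, scaled between libraries with TMM factors) for 6 of the 9 genes, beside 37.2% of all tested genes. The filter asks for a CPM worth about 10 counts in a library of median size, in at least 3 libraries of either group. Cdh2 reached that level in 3 R274X and 0 floxed libraries, so it met the filter through the R274X group alone. Hepacam2 and Jam2 reached it in 3 R274X and 2 floxed libraries, so the floxed libraries alone would not have met the filter.

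**Figure D1:**
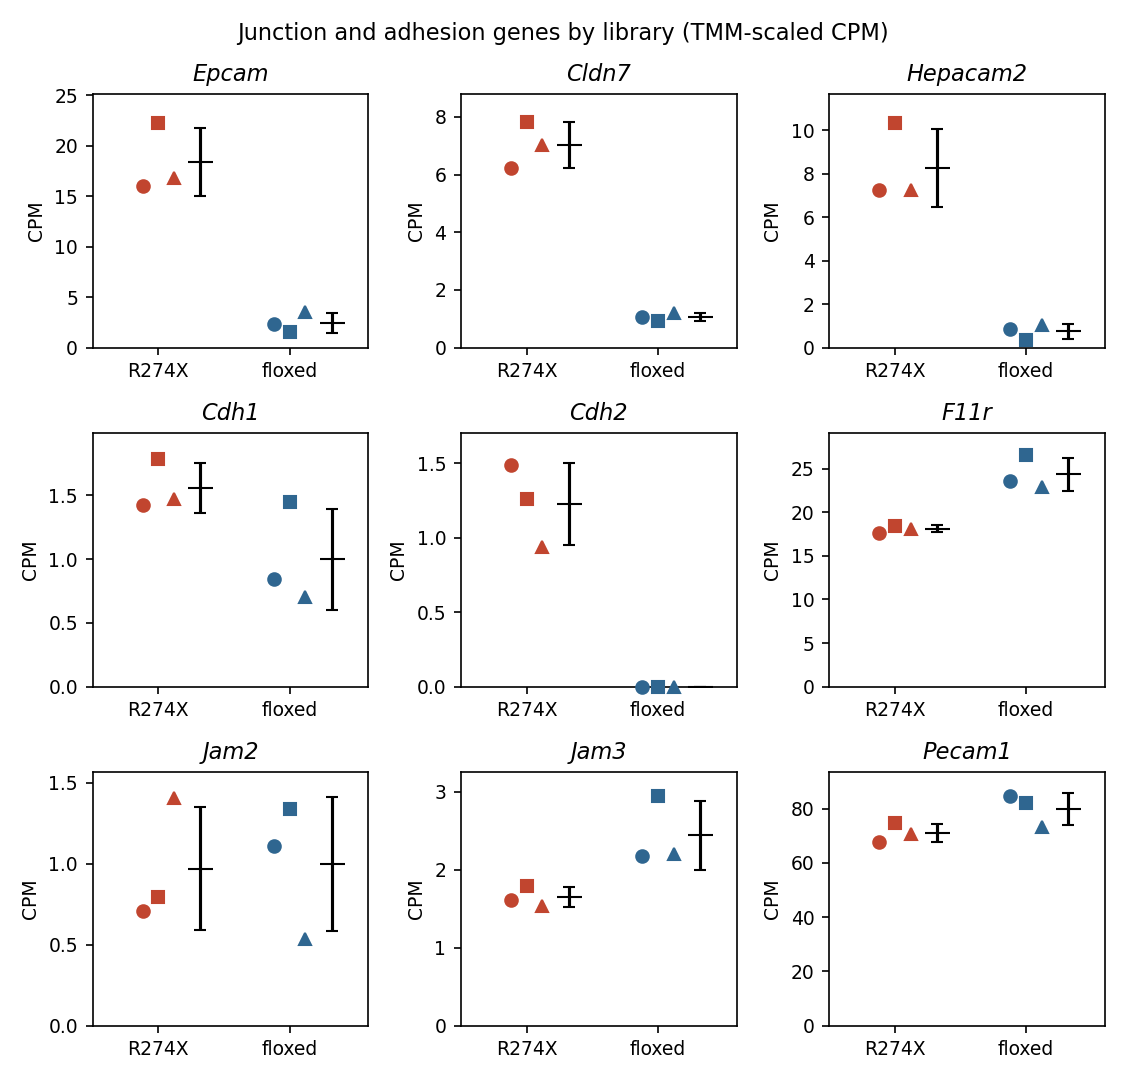
TMM-scaled CPM of each of the 9 genes in each library (points, with circle, square and triangle for replicates 1, 2 and 3, numbers that pair nothing across groups), R274X left and floxed right, with the group mean and SD beside the points and a y axis from 0 in each panel. Epcam, Cldn7, Hepacam2 and Cdh2 stand clearly above the floxed libraries in all 3 R274X libraries, whereas Cdh1, Jam2 and Pecam1 overlap between the groups.

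Epcam (ENSMUSG00000045394, chr17:87635979-87651129, plus strand) encodes the adhesion protein EpCAM. It had 248, 337 and 252 counts in R274X libraries and 45, 29 and 65 counts in floxed libraries. The lowest R274X library thus held over 3 times the counts of the highest floxed library, although the R274X libraries were the smaller ones. In CPM, Epcam averaged 18.4 ± 3.40 in R274X and 2.48 ± 0.976 in floxed libraries (SD, n = 3 each). It was 7.40-fold higher in R274X (log2 fold change 2.89, SE 0.26). The deposited FPKM values, which divide by gene length, were 7.83, 10.9 and 8.26 in R274X libraries and 1.16, 0.751 and 1.71 in floxed libraries, so the second unit put the groups apart in the same way.

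Cldn7 (ENSMUSG00000018569, chr11:69964779-69967885, plus strand) encodes claudin-7, the claudin that EpCAM binds. It had 96, 118 and 105 counts in R274X libraries and 20, 17 and 22 in floxed libraries. These counts are lower than those of Epcam but vary less within each group. In CPM, Cldn7 averaged 7.01 ± 0.798 in R274X and 1.05 ± 0.137 in floxed libraries (SD, n = 3 each), a 6.63-fold higher level in R274X (log2 fold change 2.73, SE 0.25). The FPKM of Cldn7 divided by that of Epcam was 0.405, 0.367 and 0.436 in R274X libraries and 0.465, 0.614 and 0.354 in floxed libraries. The ratio overlapped between the groups, while the level of each of the pair did not.

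Hepacam2 (ENSMUSG00000044156, chr6:3457096-3498298, minus strand) encodes a membrane protein of the immunoglobulin superfamily related to hepatic and glial cell adhesion molecule. It had 112, 156 and 108 counts in R274X libraries and 16, 7 and 19 counts in floxed libraries. As for Epcam, R274X library 2 was the highest and floxed library 2 the lowest of the 6. Its CPM averaged 8.26 ± 1.78 in R274X and 0.748 ± 0.335 in floxed libraries (SD, n = 3 each), 10.9-fold higher in R274X (log2 fold change 3.45, SE 0.33). Relative to Epcam, its FPKM was 0.157, 0.161 and 0.149 in R274X libraries and 0.124, 0.0838 and 0.102 in floxed libraries. Unlike the ratio of Cldn7 to Epcam, this one did not overlap between the groups and was higher in all 3 R274X libraries.

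Cdh2 (ENSMUSG00000024304, chr18:16588877-16809246, minus strand) encodes N-cadherin, the classical cadherin of nerve, muscle and mesenchymal cells. It had 23, 19 and 14 counts in R274X libraries and 0, 0 and 0 in floxed libraries. Reads were thus found in every R274X library and in no floxed library, at a low level in the first. Pooled over the group it stood at 1.23 CPM in R274X, against a limit of 0.0535 CPM that 3 counts over the floxed group would give. The R274X level was thus 23.0-fold that limit, a ratio that leaves out the counting error of the R274X counts. Intervals and limits of this kind cover counting error only. The antisense gene that overlaps Cdh2, Gm15485, had 0 counts in both groups.

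Cdh1 (ENSMUSG00000000303, chr8:106603351-106670246, plus strand) encodes E-cadherin, the cadherin of epithelial adherens junctions. It had 22, 27 and 22 counts in R274X libraries and 16, 27 and 13 counts in floxed libraries. The groups overlapped, with R274X library 2 and floxed library 2 at the same count. In CPM, Cdh1 averaged 1.56 ± 0.197 in R274X and 0.998 ± 0.396 in floxed libraries (SD, n = 3 each), and the log2 fold change of 0.64 (SE 0.40) did not pass the threshold. Any difference in Cdh1 was within the spread of the libraries. The 2 cadherins of the set thus differed in pattern, with Cdh2 detected in R274X libraries alone and Cdh1 detected at a low level in all 6.

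F11r (ENSMUSG00000038235, chr1:171437535-171464603, plus strand) encodes JAM-A, a junction receptor also carried by white blood cells and platelets. It had 273, 279 and 271 counts in R274X libraries and 445, 495 and 425 counts in floxed libraries. Scaled to CPM, it averaged 18.1 ± 0.400 in R274X and 24.3 ± 1.94 in floxed libraries (SD, n = 3 each), with no overlap between the groups. It was 1.35-fold lower in R274X (log2 fold change -0.43, SE 0.11). The estimate kept its direction without any 1 library, but did not pass the threshold without floxed library 2 (-0.38), R274X library 1 (-0.41) or R274X library 2 (-0.44).

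Jam3 (ENSMUSG00000031990, chr9:27097384-27155421, minus strand) encodes JAM-C, known on blood stem cells and endothelium. It had 25, 27 and 23 counts in R274X libraries and 41, 55 and 41 in floxed libraries. All 3 R274X libraries were below all floxed libraries, at 1.65 ± 0.126 CPM in R274X and 2.44 ± 0.439 CPM in floxed libraries (SD, n = 3 each), but the log2 fold change of -0.57 (SE 0.31) did not pass the threshold. The antisense gene Gm48796 overlaps Jam3 and had 19 counts over the R274X group and 20 over the floxed group. No source used here says whether strand was used in counting, so reads of the pair may be mixed.

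Jam2 (ENSMUSG00000053062, chr16:84774123-84825928, plus strand) encodes JAM-B, the partner that binds JAM-C across cells. It had 11, 12 and 21 counts in R274X libraries and 21, 25 and 10 in floxed libraries. Both groups covered nearly the same range, with a log2 fold change of -0.04 (SE 0.48) that did not pass the threshold. Its sign turned when floxed library 1 or 2 or R274X library 1 or 2 was left out. Summed over the JAM genes, FPKM was 7.22, 7.59 and 7.52 in R274X libraries and 9.63, 10.9 and 9.34 in floxed libraries, and F11r made up 91.0% ± 0.447 of the sum in R274X and 90.8% ± 1.02 in floxed libraries (SD, n = 3 each). The JAM total was therefore almost wholly F11r in both groups.

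Pecam1 (ENSMUSG00000020717, chr11:106654217-106750628, minus strand) encodes PECAM-1, or CD31, which binds itself across cells and is carried by endothelium, platelets and many white blood cells. It had the most counts of the set, 1048, 1129 and 1056 in R274X libraries and 1596, 1529 and 1358 in floxed libraries. In CPM it stood at 67.8, 74.7 and 70.6 in R274X libraries and 84.5, 82.0 and 73.1 in floxed libraries. The groups overlapped, since R274X library 2 was above floxed library 3, and the log2 fold change of -0.17 (SE 0.08) did not pass the threshold. Pecam1 was the member measured with the most reads and had the smallest SE.

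Ordered by FPKM, the highest gene in R274X libraries was Pecam1 at 11.4 ± 0.561, and it was also the highest in floxed libraries at 12.7 ± 0.908 (SD, n = 3 each). Epcam came next in R274X libraries at 8.99 ± 1.66, a range that overlapped that of Pecam1, and was the third in floxed libraries at 1.21 ± 0.481, where its range overlapped that of Jam3. F11r stood at 6.77 ± 0.157 in R274X and 9.05 ± 0.670 in floxed libraries, below Epcam in R274X and above it in floxed libraries. Cldn7 and Hepacam2 followed in R274X libraries at 3.59 ± 0.411 and 1.40 ± 0.302. In floxed libraries Hepacam2, at 0.127 ± 0.0571, was the lowest gene with any reads and overlapped Jam2. At the lower end of the order in R274X libraries Jam3, Cdh1 and Jam2 had mean FPKM of 0.513, 0.340 and 0.160, and Cdh2, at 0.152, overlapped Jam2.

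The 9 genes together summed to 33.3 ± 3.08 FPKM in R274X and 24.8 ± 0.956 FPKM in floxed libraries (SD, n = 3 each). Epcam, Cldn7, Hepacam2 and Cdh2 made up 40.3%, 45.7% and 40.8% of that sum in R274X libraries and 7.33%, 4.999% and 10.5% in floxed libraries. Pecam1 made up 34.2% ± 1.48 in R274X and 51.3% ± 2.12 in floxed libraries. The make-up of the set thus turned from mostly Pecam1 and F11r in floxed libraries to a mixture in which Epcam was close to Pecam1 in R274X libraries.

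**Figure D2:**
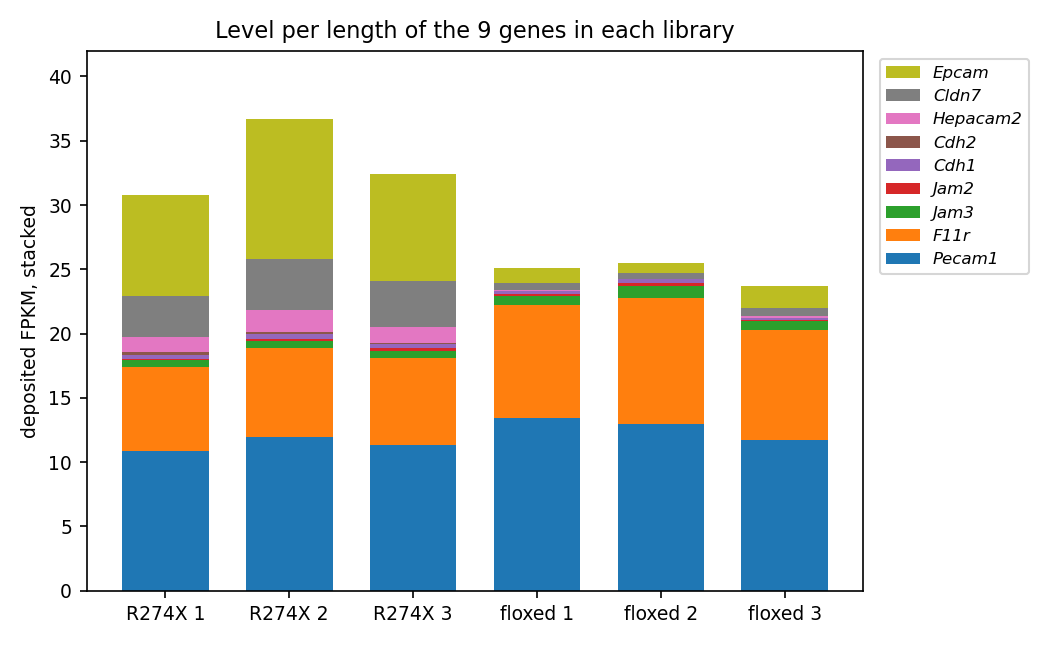
Deposited FPKM of the 9 genes stacked in each library, with the 3 R274X libraries left and the 3 floxed libraries right and the y axis from 0. The Epcam, Cldn7 and Hepacam2 segments are wide in every R274X library and thin in every floxed library, while Pecam1 and F11r fill most of the floxed bars.

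The junction genes around the set were then counted from 9 lists of textbook families, 158 genes in all. Of these, 26 had no count in any library and 85 were tested, of which 8 were higher, 9 lower and 68 past no threshold. The 17 called are set beside the 17.9% of all genes called, and the median log2 fold change was -0.04, beside -0.02. The lists were drawn up with earlier results of these data known. Adjusted p-values in the next paragraphs are from the edgeR quasi-likelihood test with Benjamini-Hochberg adjustment over all 14608 genes.

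Of 27 tight junction strand genes other than Cldn7, 8 had no counts, and of the 9 tested 0 were higher and 2 lower. Claudin gene Cldn1 had 2.46, 1.06 and 2.07 CPM in R274X libraries and 4.34, 5.79 and 2.75 CPM in floxed libraries (log2 fold change -1.20, SE 0.36, adjusted p = 0.0364). Cldn12 had 3.62, 2.58 and 3.35 CPM in R274X and 4.50, 7.13 and 6.78 CPM in floxed libraries (log2 fold change -0.94, SE 0.25, adjusted p = 0.0213). Both were lower in R274X, opposite to Cldn7, and neither passed the threshold in several of the fits that left out a library. Cldn4, an epithelial claudin, had 44 counts over the R274X group and 100 over the floxed group and did not pass (adjusted p = 0.141). Cldn3 had 1 count in all, and Ocln, which encodes the strand protein occludin, had 11 counts in each group. Of the 15 tested genes of the junction plaque and of cell polarity, 0 passed the threshold under edgeR, DESeq2 or limma, 4 had an unadjusted edgeR p under 0.05, all lower, and the smallest adjusted p was 0.0803 for Mpdz.

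Of 17 other cadherins, 6 had no counts and 4 were tested, and Cdh5 alone passed, higher in R274X. Cdh5 encodes VE-cadherin of endothelium and had 2.01, 2.05 and 0.736 CPM in R274X libraries and 0.635, 0.322 and 0.592 CPM in floxed libraries (log2 fold change 1.62, SE 0.50, adjusted p = 0.0424). R274X library 3 lay close to the floxed libraries, and the call was absent in 5 of the 6 fits that left out 1 library. Cdh5 reached the filter count in 3 R274X and 2 floxed libraries, so the floxed libraries alone would not have met the filter. Of the 15 tested catenin and nectin genes, 0 were higher and 2 lower. Afdn, which encodes the nectin linker afadin, was 3.36, 4.10 and 3.88 CPM in R274X and 10.1, 7.77 and 6.51 CPM in floxed libraries (log2 fold change -1.10, SE 0.22, adjusted p = 0.00514). Camsap3, which encodes a microtubule end binder that is anchored at adherens junctions, was 1.36, 1.46 and 2.21 CPM in R274X and 5.77, 6.06 and 5.71 CPM in floxed libraries (log2 fold change -1.80, SE 0.26, adjusted p = 0.000911). The cadherin-binding catenins did not pass: Ctnnb1 (beta-catenin) averaged 195.8 ± 10.3 CPM in R274X and 214.5 ± 7.15 CPM in floxed libraries (adjusted p = 0.232), and Ctnnd1 (p120-catenin) had a log2 fold change of -0.54 (SE 0.23, adjusted p = 0.124).

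Among 3 tested receptors of the family that Jam2, Jam3 and F11r belong to, Jaml was higher and Esam lower. Jaml, a receptor of white blood cells for the junction protein CAR, had 16.2, 14.4 and 15.9 CPM in R274X libraries and 9.69, 7.88 and 7.48 CPM in floxed libraries (log2 fold change 0.89, SE 0.15, adjusted p = 0.00188). Esam, a marker of endothelium and blood stem cells, had 10.2, 10.4 and 11.6 CPM in R274X libraries and 19.9, 20.7 and 23.9 CPM in floxed libraries (log2 fold change -1.004, SE 0.13, adjusted p = 0.000401). Both kept their calls in every setting tried. Of the 13 tested ligands and signalling partners of JAM proteins, PECAM-1 and E-cadherin, 2 were higher and 0 lower. Klrg1, an inhibitory receptor of lymphocytes that binds E-cadherin, had 12, 10 and 12 counts in R274X and 1, 1 and 0 counts in floxed libraries (adjusted p = 0.00515), a 20.9-fold higher pooled CPM in R274X with an exact 95% counting interval of 5.37 to 180.0. Klrg1 reached the filter count in 3 R274X and 0 floxed libraries, so it was tested only through the group in which it was high. Cd38, an ectoenzyme that binds PECAM-1, had 18.4, 15.5 and 9.77 CPM in R274X and 4.66, 2.25 and 5.92 CPM in floxed libraries (log2 fold change 1.77, SE 0.40, adjusted p = 0.0300), a call that was lost without floxed library 1, R274X library 1 or R274X library 2.

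Of 13 tested partners and proteases of EpCAM, 1 was higher and 3 were lower. The tetraspanin gene Cd81 rose, by 0.36 on the log2 scale (SE 0.08, adjusted p = 0.00828). The protease genes Bace1 (log2 fold change -0.86, SE 0.16, adjusted p = 0.00325) and Adam10 (-0.25, SE 0.08, adjusted p = 0.0407) fell, as did the protease inhibitor gene Spint2 (-0.31, SE 0.07, adjusted p = 0.00751). The Adam10 call was lost in 9 of 15 other settings, DESeq2 and 5 of the 6 fits without a library among them, and that of Cd81 without floxed library 2. Of 5 tested desmosome and gap junction genes, 0 were higher and 1 was lower.

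Of 8 tested regulators of epithelial and mesenchymal states, 3 were higher and 0 lower. Tcf3, which encodes E2A, an E-box binder needed for the B lineage, had 386.8, 423.8 and 288.8 CPM in R274X libraries and 209.9, 213.3 and 211.4 CPM in floxed libraries (log2 fold change 0.79, SE 0.12, adjusted p = 0.00313). Klf4 rose by 0.82 (SE 0.12, adjusted p = 0.00141) and Tcf4, which encodes E2-2, by 0.27 (SE 0.09, adjusted p = 0.0485). The Tcf4 call was lost in 11 of 15 other settings, among them DESeq2 and 5 of the 6 fits without a library, which leaves 2 called regulators. The repressor genes did not pass: Zeb1 averaged 22.5 ± 2.18 CPM in R274X and 26.7 ± 0.595 CPM in floxed libraries (SD, n = 3 each, adjusted p = 0.126), and Zeb2 had a log2 fold change of -0.11 (SE 0.09, adjusted p = 0.429). Snai1 had 40 counts over the R274X group and 18 over the floxed group and did not pass (adjusted p = 0.231). Among activators of the epithelial programme, Grhl2 had 2 counts over the R274X group and 1 over the floxed group, and Ovol2 and Esrp1 had 0 in all libraries.

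**Figure D3:**
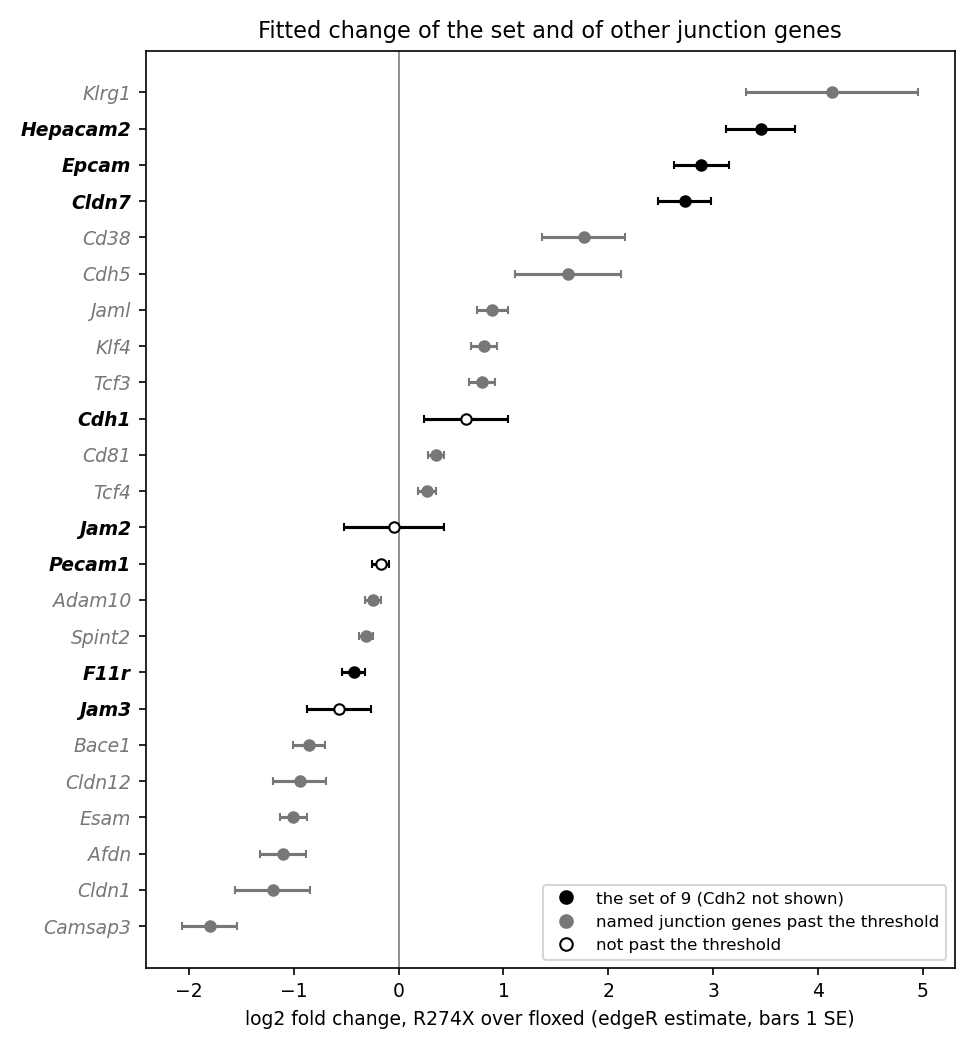
Fitted log2 fold change (R274X over floxed, edgeR, bars 1 SE) of 8 genes of the set in black and of the other junction genes named here that passed the threshold in grey, with open symbols for genes that did not pass. Cdh2 is left out because its floxed libraries had 0 counts, and Klrg1, with 1, 1 and 0 floxed counts, is placed by a fit to few reads. Hepacam2, Epcam and Cldn7 lie between 2.73 and 3.45, and all other genes shown except Klrg1 lie within 2 units of 0.

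The label of the set names an epithelial type, and the markers of epithelial cells were therefore read beside it. Of 11 such markers, Krt14, Krt19 and Esrp1 were at 0 in all libraries, and Krt5 and Cldn3 had 1 count each. Of the 4 tested, 0 were higher and 2 were lower: Krt18, a simple-epithelium keratin, had 31.1, 34.5 and 37.1 CPM in R274X and 53.3, 52.7 and 56.6 CPM in floxed libraries (log2 fold change -0.66, SE 0.09, adjusted p = 0.000613, edgeR), and Krt7 had a log2 fold change of -0.82 (SE 0.26, adjusted p = 0.0487). The Krt7 call was lost in 9 of 13 other settings, among them all 6 fits without a library, and that of Krt18 in none. Krt8 did not pass (adjusted p = 0.617). The summed level of the list was 35.6 to 40.7 CPM in R274X and 60.2 to 63.3 CPM in floxed libraries. Epcam, Cldn7, Hepacam2 and Cdh2 were thus higher in libraries in which Krt18 was lower and none of the 4 tested epithelial markers was higher under edgeR, and the set is called here by its genes.

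Marker lists of blood and marrow cells moved with the groups as well. Of 11 tested B cell markers, 7 were higher and 0 lower, with sums of 938.1 to 1822 CPM in R274X and 219.3 to 510.3 CPM in floxed libraries, and of 10 plasma cell markers, 6 were higher and 0 lower, with sums of 2144 to 4787 CPM in R274X and 375.1 to 956.7 CPM in floxed libraries. With 1 library left out, 2 to 8 of the B cell and 2 to 6 of the plasma cell markers were called higher, as were 1 to 7 of the macrophage and monocyte, 3 to 7 of the T and NK cell, 5 to 7 of the dendritic cell and 2 to 5 of the erythroid markers. The lower calls then came to 2 to 5 for endothelial cells, 0 to 4 for megakaryocytes and 0 to 1 for mast cells and basophils. With all 6 libraries, DESeq2, edgeR without its robust option and both limma fits called 10 B cell and 9 plasma cell markers higher. The same fits called 11 or 12 macrophage and monocyte markers and 4 to 8 T and NK cell markers higher. Without the count filter, 4 B cell, 7 plasma cell and 5 macrophage and monocyte markers were higher. In the main edgeR fit, higher and lower counts were 7 and 0 of 12 for macrophages and monocytes (2229 to 3797 CPM in R274X, 751.8 to 1022 CPM in floxed libraries), and 8 and 1 of 12 for T and NK cells (194.7 to 241.6 CPM in R274X, 236.8 to 240.7 CPM in floxed libraries). They were 7 and 1 of 11 for dendritic cells (930.6 to 1042 CPM in R274X, 804.8 to 869.8 CPM in floxed libraries), and 3 and 1 of 13 for erythroid cells (2327 to 3627 CPM in R274X, 1528 to 1818 CPM in floxed libraries). They were 1 and 3 of 10 for endothelial cells (110.2 to 124.6 CPM in R274X, 166.7 to 199.3 CPM in floxed libraries) and 0 and 1 of 4 for stromal cells (22.4 to 29.4 CPM in R274X, 36.6 to 37.6 CPM in floxed libraries, with Lum at 0). For megakaryocytes they were 0 and 2 of 9 (116.2 to 161.6 CPM in R274X, 175.3 to 234.2 CPM in floxed libraries, with Gp1bb at 0), and for mast cells and basophils 0 and 1 of 8 (142.6 to 267.4 CPM in R274X, 195.4 to 300.0 CPM in floxed libraries). Of 12 neutrophil markers, 0 passed under edgeR, DESeq2 or limma, and 0 had an unadjusted edgeR p under 0.05 (14350 to 37390 CPM in R274X, 18990 to 31740 CPM in floxed libraries). A lineage-negative gate is meant to remove most of these mature cells. The part of other cell types in the levels of the 9 genes was not tested.

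Library by library, Epcam relative to its floxed mean was 6.47, 8.99 and 6.80 in R274X libraries and 0.961, 0.627 and 1.41 in floxed libraries. The immunoglobulin share on the same scale was 9.70, 11.3 and 6.30 in R274X libraries and 0.919, 0.414 and 1.67 in floxed libraries. In both, R274X library 2 was the highest of all, and within the floxed group library 3 was the highest and library 2 the lowest. The order of R274X libraries 1 and 3 differed: library 3 was above library 1 for Epcam and below it for the immunoglobulin share. Irf4, a regulator of plasma cells and B cell activation, was 5.92, 6.75 and 4.93 in R274X libraries and 0.877, 0.567 and 1.56 in floxed libraries. Hepacam2 and Cldn7 had the same order as Epcam within the floxed group, whereas Krt18 was below its floxed mean in all 3 R274X libraries. R274X library 3 was above library 1 for Cldn7 (6.68 and 5.91), nearly level with it for Hepacam2 (9.65 and 9.68) and below it for Irf4.

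**Figure D4:**
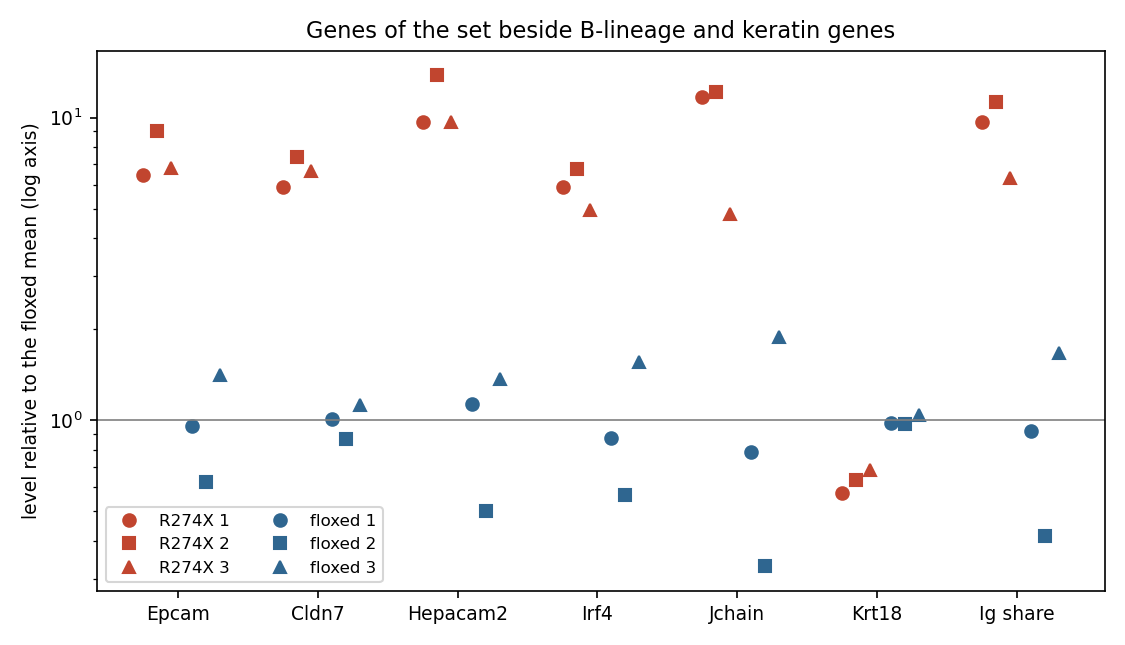
Level of Epcam, Cldn7 and Hepacam2 beside the B-lineage genes Irf4 and Jchain, the keratin gene Krt18 and the immunoglobulin share of counts (Ig share), each divided by its mean over the floxed libraries, on a log axis, with R274X in red and floxed in blue. Floxed library 2 (square) is the lowest of the floxed libraries for every quantity shown, and Krt18 is below 1 in all 3 R274X libraries, between 0.574 and 0.684.

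The genes with the most similar course over the 6 libraries were found by the root mean square difference of centred log2(CPM + 0.5). Each member was compared with 10080 genes or 1 fewer. Immunoglobulin, predicted and RIKEN genes and genes with a mean under 5 CPM were left out, so no immunoglobulin gene could be listed. The measure uses the group difference itself and was given no test. For Hepacam2 the closest was Epcam, at a difference of 0.110. Both genes had been chosen from values of this comparison, on which the measure rests, so their closeness is a description only. Among the genes compared, the closest to Epcam were Cacna1h (0.149), a calcium channel gene, Irf4 (0.171) and Oosp1 (0.206). Hepacam2 and Cldn7 had means under 5 CPM and were not among the genes compared. The measure is the same in both directions, so Hepacam2, at 0.110, lay closer to Epcam than Cacna1h did. Cacna1h and Oosp1 also followed Epcam for Hepacam2 (0.202 and 0.248). Cldn7 was nearest to Rnase12 (0.223), Ikzf3 (0.233), which encodes the lymphoid factor Aiolos, and Il13ra1 (0.269). F11r was nearest to Pitpnc1 (0.033), Erf (0.034) and Ttyh3 (0.036), Pecam1 to Fbrsl1 (0.021), Brd1 (0.022) and Kdm3a (0.025), Jam3 to Gtf3c4 (0.045), Focad (0.053) and Wdsub1 (0.054), and Cdh1 to Rpusd2 (0.095), Serpina3f (0.107) and Trib2 (0.115). Many genes with a small group difference share a flat course, so the small values for F11r, Pecam1 and Jam3 single out no gene.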

How the data were processed

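RNA of 6 mouse bone marrow LSK libraries (3 R274X, 3 floxed) was extracted with TRIzol and prepared with an Illumina TruSeq RNA kit, per the labels' protocols. For each of 54532 Ensembl genes the deposited files hold a raw count and an FPKM, per the file headers. The submitters' processing notes name Bowtie and the build mm8. Counting tool, annotation and strand setting were not found in the labels. Implied gene lengths equalled merged exon lengths of GENCODE M21 for 94.2% of well-covered genes, so coordinates and symbols are those of GRCm38 (54409 identifiers had a symbol, 123 had none). The deposited FPKM values are scaled between libraries by median-ratio size factors. No replicates agreed within sampling noise (chi-square per gene at least 12.05).

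The test was edgeR's quasi-likelihood F test on the counts (edgeR 4.0.16, R 4.3.3, TMM scaling, default count filter, robust option, Benjamini-Hochberg adjustment, threshold 0.05), checked on simulated data. The immunoglobulin genes stayed in this test. Alternatives were RLE and upper-quartile scaling, DESeq2 1.42.0, no filter, a filter at mean count 50, robust fitting off, limma 3.58.1 on log2 of FPKM plus 1 or 0.1 (mean FPKM at least 0.5), immunoglobulin genes removed, and each library left out. Levels are means with SD.

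The 9 genes, the lists and their tests were chosen with earlier results of these data known. Named genes were the 9 members, Phf6, 14 fixed genes, up to 4 of the smallest p in each list, and the 3 of most like course for each member with a mean of at least 1 CPM, among tested genes with a mean of at least 5 CPM. Predicted, RIKEN and immunoglobulin genes were left out of the comparison of courses. Genes named outside this rule (Ovol2, Esrp1, Krt5, Krt14, Krt19, Lum and Gp1bb, at 0 or 1 count, Jchain in a figure, and the overlapping antisense genes) were chosen after their values were seen. Protein sequences were not used here, and some genes of the lists are counted but not reported by name.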

Additional observations from a re-analysis of the deposited data

How the results depend on the processing

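Epcam, Cldn7, Hepacam2 and Cdh2 stayed on the same side of the threshold under every alternative that could be fitted, as did Cdh1, Jam2, Jam3 and Pecam1 on the other, which describes genes chosen on these values. F11r was lower throughout and lost its call without floxed library 2 (-0.38), R274X library 1 (-0.41) or R274X library 2 (-0.44). The sign of Jam2 turned without floxed library 1 (0.034), floxed library 2 (0.213), R274X library 1 (0.141) or R274X library 2 (0.083), over a range of -0.40 to 0.21 on the log2 scale. The log2 fold change was 1.09 to 3.73 for Hepacam2, 2.19 to 3.21 for Epcam and 1.58 to 2.81 for Cldn7, lowest with limma on log2(FPKM + 1), whose pseudocount compresses low values by construction. Limma on FPKM could not be fitted for Cdh1, Cdh2 and Jam2, nor the mean count of 50 for these and Jam3.

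The count of 2621 called genes became 1581 with limma on log2(FPKM + 1), 1548 with log2(FPKM + 0.1) and 1218 to 3295 with 1 library left out, and the 17 called junction partners became 10, 10 and 10 to 25. The cause was not tested. Genes called higher made up 56.0% of calls, and 45.9% with upper-quartile scaling (1215 higher, 1430 lower). Among partners, Tcf4 lost its call in 11 of 15 alternatives, Adam10 in 9 of 15, Cdh5 in 7 of 12, Cldn1 in 7 of 15 and Cldn12 in 6 of 15. Over the alternatives, 118 values of single members kept direction and side of the threshold, beside the 3 and 4 named above. Depth limits Cdh1, Cdh2, Jam2 and Jam3, each with at most 55 counts in any library. No paired analysis was possible because the labels give no replicate numbers, and those used here follow accession order and pair nothing.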
